A study of Mus musculus with 32 samples.

Results

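Interferon-stimulated genes were followed in 32 primary mouse melanomas. The set held 41 genes of the 50600 in the deposited tables, chosen by name and found by their Ensembl identifiers in the mouse GENCODE annotation, and all 41 passed the filter on low counts that left 17717 genes for testing. They were described as 33 type I-like members, genes best known as targets of interferons alpha and beta, and 8 gamma-like members, genes best known as targets of interferon gamma: Irf1, Gbp2, Gbp3, Gbp5, Gbp7, Igtp, Iigp1 and Irgm1.

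The tumours fell into 4 groups of 8: Ecad males, Ecad females, ΔEcad males and ΔEcad females. All carried Tyr::NrasQ61K, an activated Nras expressed from the tyrosinase promoter that drives expression in melanocytes, and were Cdkn2a-/+ and Cdh1F/F, with floxed alleles of the E-cadherin gene. Ecad tumours were °/° at the remaining locus, without Cre. For ΔEcad tumours the labels write Tyr::NRAS/° at that locus, where the methods of the study name Tyr::CreA/°, a Cre driven in melanocytes, so that Cdh1 deletion is confined to the melanocyte lineage and other cells of the tumour keep the gene. The mice were on a C57BL/6J background and their ages were not given in the sources used here. The design addressed what loss of Cdh1 changes in tumours of each sex. The labels do not say whether each tumour came from a different mouse, so that p-values measure the spread between these tumours only.

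Interferons are secreted when cells sense foreign or misplaced nucleic acid, and in the case of interferon gamma when T cells and natural killer cells are activated. Type I interferons signal through JAK kinases to transcription factors that bind the interferon-stimulated response element (ISRE), whereas the response to interferon gamma runs through the gamma-activated site (GAS). Many target genes respond to both, and in tumours the same genes are read in malignant cells and in the immune and stromal cells around them. In bulk RNA from whole tumours, fewer cells of a type and less RNA per cell cannot be told apart.

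The DNA before the start of these genes holds the letters of both elements. RefSeq windows on GRCm38.p6, from 250 bases before to 50 after a gene's start, were found for 30 of the 41 members. The ISRE was searched as GAAA, any 2 bases and GAAA again, and the GAS as TTCNNNGAA, both on either strand. Of the type I-like members with a window, 12 of 23 (52.2%) held an ISRE match and 5 of 23 (21.7%) a GAS match. Of the gamma-like members, 6 of 7 (85.7%) held an ISRE match and 4 of 7 (57.1%) a GAS match. Counted per gene in the same way, 3.99% of the 27025 genes with a window held the ISRE and 9.55% the GAS letters (3.44% and 8.3% of all 32851 windows). Both occurred in 5 of 30 members, beside 0.614% of all genes, and neither in 8 of 30, beside 87.1%. In the Bst2 window the matches to both motifs overlapped. The stretches below are examples, each holding a match, and do not stand for all members. Gbp3, with ISRE matches and no GAS match, and Irf7, with neither, are among those not shown. The printed stretches lie upstream of the RefSeq start, read 5′ to 3′ on the strand of the gene, with matches to either motif in capitals. An ISRE on the other strand appears as TTTC, any 2 bases and TTTC. 11 members, Zbp1, Dhx58, Mx1, Mx2, Parp9, Rtp4, Parp14, Iigp1, Oas2, Usp18 and Ifi27l2a, had no window.
Isg15: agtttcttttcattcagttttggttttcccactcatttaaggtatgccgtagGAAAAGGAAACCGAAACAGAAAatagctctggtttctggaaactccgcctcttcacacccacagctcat
Ifit1: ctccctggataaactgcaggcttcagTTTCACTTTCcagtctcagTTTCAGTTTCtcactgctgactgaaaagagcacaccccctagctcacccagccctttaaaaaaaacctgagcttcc
Ifit3: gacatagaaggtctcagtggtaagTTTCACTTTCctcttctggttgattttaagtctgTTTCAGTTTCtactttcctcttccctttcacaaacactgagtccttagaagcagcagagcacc
Ifit3b: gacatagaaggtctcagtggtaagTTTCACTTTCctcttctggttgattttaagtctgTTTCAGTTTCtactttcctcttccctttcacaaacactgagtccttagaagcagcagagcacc
Irf1: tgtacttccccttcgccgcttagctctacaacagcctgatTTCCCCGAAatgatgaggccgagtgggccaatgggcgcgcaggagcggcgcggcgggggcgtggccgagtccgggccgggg
Gbp2: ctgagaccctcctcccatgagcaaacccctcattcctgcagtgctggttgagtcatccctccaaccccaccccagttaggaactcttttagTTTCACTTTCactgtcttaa
Gbp5: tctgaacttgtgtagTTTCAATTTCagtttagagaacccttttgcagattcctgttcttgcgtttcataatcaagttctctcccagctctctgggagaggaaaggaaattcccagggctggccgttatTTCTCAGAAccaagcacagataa
Gbp7: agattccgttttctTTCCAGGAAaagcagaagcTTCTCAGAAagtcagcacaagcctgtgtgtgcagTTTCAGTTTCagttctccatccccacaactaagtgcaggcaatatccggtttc
Igtp: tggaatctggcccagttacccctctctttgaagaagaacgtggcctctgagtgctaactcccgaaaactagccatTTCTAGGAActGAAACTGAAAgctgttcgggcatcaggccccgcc
On GRCm38.p6 they lie at chr4:156200828-156200948 (Isg15, minus strand), chr19:34640759-34640879 (Ifit1, plus strand), chr19:34583349-34583469 (Ifit3, plus strand), chr19:34607745-34607865 (Ifit3b, plus strand), chr11:53769884-53770004 (Irf1, plus strand). The others lie at chr3:142620513-142620623 (Gbp2, plus strand), chr3:142496754-142496904 (Gbp5, plus strand), chr3:142530216-142530335 (Gbp7, plus strand) and chr11:58199436-58199555 (Igtp, plus strand). The Isg15 stretch held 3 overlapping ISRE matches, whose first bases lay 78, 72 and 66 bases before the start. Ifit1 held 2, at 104 and 85 bases. The Ifit3 and Ifit3b stretches were identical at 121 of 121 bases. Irf1 held a GAS match 90 bases before its start and no ISRE match in its window. Gbp2 held an ISRE match at 59 bases and no GAS match in its window. Gbp5, Gbp7 and Igtp each held both motifs. A match describes letters only, and no match says only that those letters are not in the window.

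Before the members themselves, 3 libraries and the targeted gene need a word. Library totals ran from 24036333 to 63923086 counts. Cdh1 had a median of 145 TPM (a transcript level corrected for gene length and depth) in Ecad males against 3.29 TPM in ΔEcad males, with overlapping ranges. In females its median was 30.6 TPM in Ecad tumours and 46.7 TPM in those labelled ΔEcad, so that it did not separate the genotypes. The summed keratinocyte markers, from cells that also express Cdh1 and lie outside the melanocyte lineage, had a median of 2.1 TPM in Ecad females, against 6841 TPM in females with ΔEcad, and their part in the Cdh1 level was not tested. The library labelled ΔEcad male 2 had 0 counts over 4 Y-linked genes, where every other male had at least 1459, and Xist at 6.41 TPM. Melanocytic markers of ΔEcad male 7 summed to 31.9 TPM against 5908 to 76450 TPM elsewhere, so that its label as melanoma was not borne out by its defining genes. In ΔEcad female 3, macrophage markers summed to 31.4 TPM, endothelial markers to 0.78 TPM and red blood cell markers to 0.00 TPM. Medians over the members, group means of scores and sums of T and NK cell markers are given below with and without these libraries.

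Levels between genes are compared in TPM, as the median over all 32 tumours with the lowest and highest tumour. Bst2, which encodes tetherin, a membrane protein that holds budding virus at the cell surface, was the most abundant member at a median of 162 TPM (45.4 to 1487). Ifi35 followed at 49.9 TPM (9.24 to 121) and Ifi27l2a, a small mitochondrial protein gene, at 48.5 TPM (0.30 to 354). At the other end stood Ifi44 at 0.30 TPM (0.05 to 14.2) and Oas3 at 0.615 TPM (0.01 to 11.5). The ranges of neighbours in this order overlapped, and those of the highest and the lowest member did not.

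Among the effectors that act on viral RNA, the IFIT proteins bind unusual RNA ends and block translation. Ifit3 had a median of 26.1 TPM (2.38 to 426), Ifit2 14.3 TPM (2.09 to 79.7), Ifit3b 7.10 TPM (0.51 to 122) and Ifit1 3.01 TPM (0.28 to 119). Ifit3 and Ifit3b are near copies: 51.2% of the 50-base words of Ifit3 transcripts also occurred in other genes, so the split of reads between them is uncertain. The oligoadenylate synthetases, which make the signal that activates RNase L, were low. Oas1a had a median of 4.26 TPM (0.04 to 53.8), with 57.6% of its 50-base words shared with Oas1g, Oas2 1.96 TPM (0.02 to 20.9), and their relatives Oasl1 1.33 TPM (0.17 to 31.7) and Oasl2 4.10 TPM (0.08 to 70.4). Of genes from GTPase and enzyme families known for antiviral action, Mx1 had a median of 1.43 TPM (0 to 28.5) and Mx2 1.57 TPM (0.24 to 16.3). Rsad2, encoding viperin, had 3.25 TPM (0.55 to 57.0) and its neighbour Cmpk2, a nucleotide kinase gene, 4.44 TPM (0.26 to 46.2). The exonuclease gene Isg20 had 5.34 TPM (0.60 to 18.6). RNA levels do not show whether a working protein is made in this strain, for Mx1 and Mx2 as for the others. Isg15, a ubiquitin-like modifier, had a median of 18.1 TPM (0.31 to 180) and Usp18, which removes it and restrains the receptor, 2.74 TPM (0.22 to 54.3).

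Of the transcription factors of the type I response, 2 were steadier than the third. Irf9 had a median of 20.3 TPM (6.13 to 56.9) and Stat2 19.9 TPM (3.75 to 96.0), whereas Irf7, the factor that amplifies interferon alpha production, had 6.69 TPM and ran from 0.39 to 87.3 TPM. The RNA sensors Ddx58 (RIG-I), Ifih1 and Dhx58 had medians of 9.77, 2.79 and 6.16 TPM, and Zbp1, a sensor of Z-form nucleic acid, 2.98 TPM (0.08 to 112). Parp9 and Dtx3l, whose products form one complex and whose genes overlap on opposite strands, had 15.6 and 6.22 TPM, and Parp14 had 7.90 TPM. The remaining members Xaf1, Rtp4 and Trim30a had medians of 10.3, 7.76 and 6.14 TPM. Of the gamma-like members, the transcription factor gene Irf1 had a median of 29.6 TPM (4.86 to 213). The immunity-related GTPases, which act on the vacuoles of intracellular parasites, had medians of 27.5 TPM (Irgm1), 16.9 TPM (Igtp) and 6.11 TPM (Iigp1). The guanylate-binding proteins, large GTPases with a like role, had medians of 24.2 TPM (Gbp2), 12 TPM (Gbp3), 5.00 TPM (Gbp7) and 1.34 TPM (Gbp5). Gbp2 reached 2170 TPM in its highest tumour, 89.7 times its median, Iigp1 444 TPM, 72.7 times, and Gbp5 67.7 TPM, 50.7 times, whereas Ifi35 reached 2.43 times and Irf9 2.81 times its median.

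**Figure D1:**
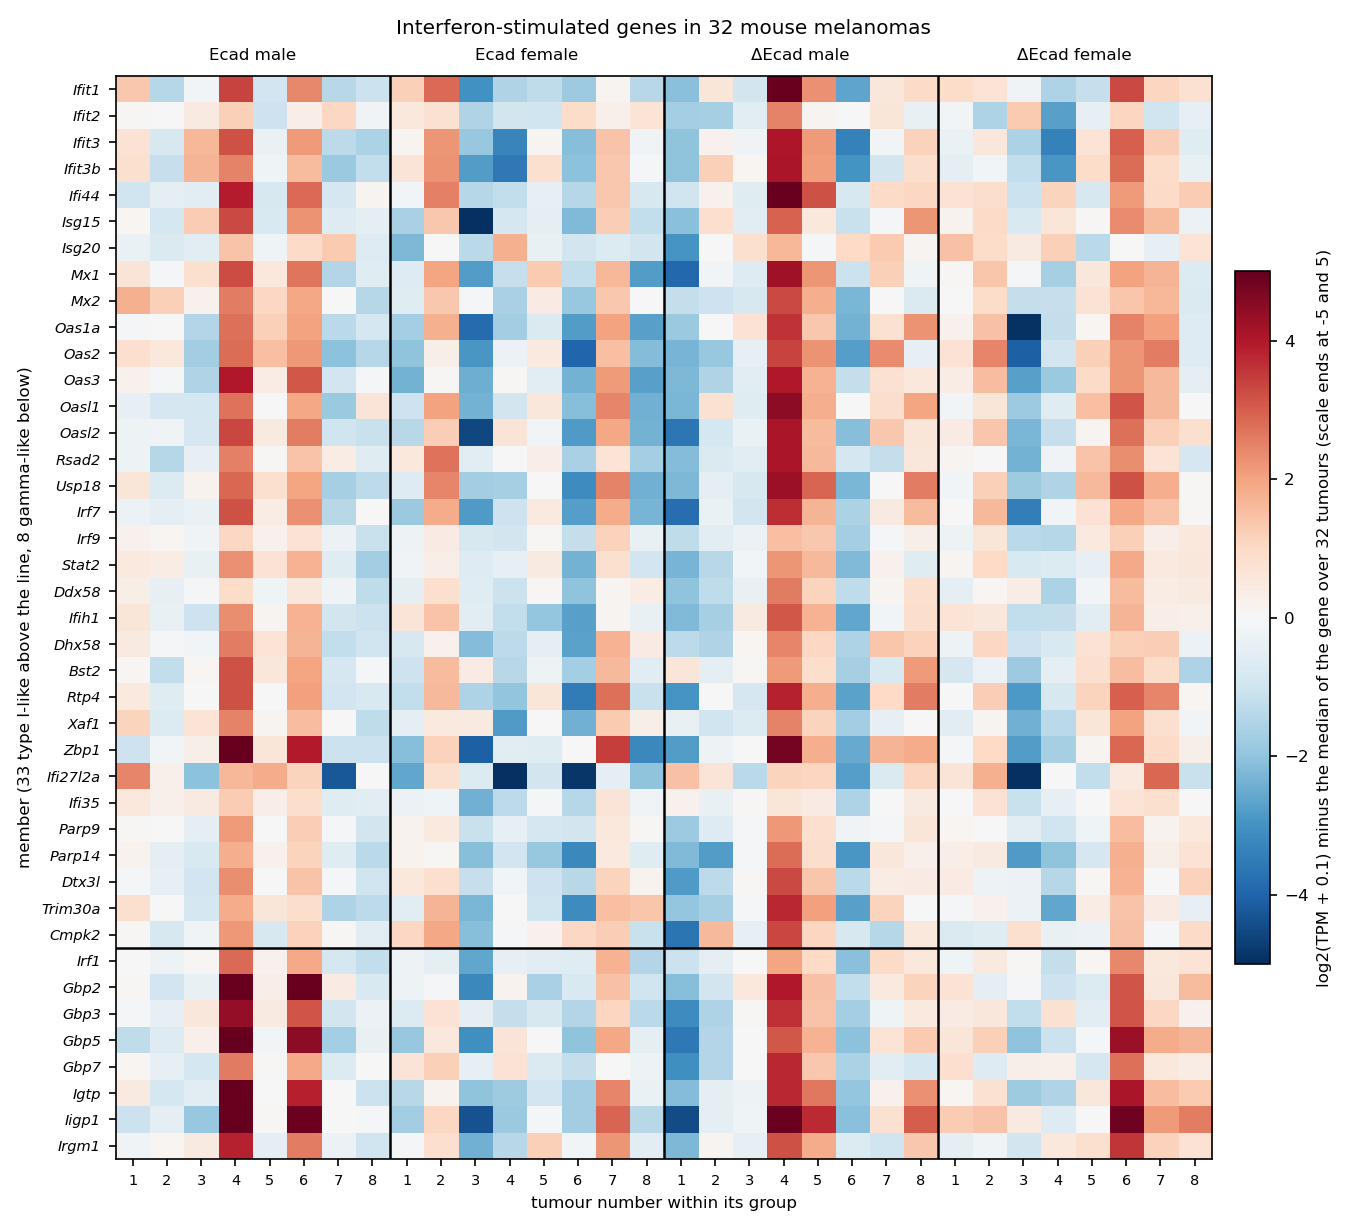
Heat map of the 41 members (rows, type I-like above the line) in 32 tumours (columns, by group and number), as log2(TPM + 0.1) minus the gene's median over all tumours. Columns that are red from top to bottom are Ecad males 4 and 6, ΔEcad male 4 and ΔEcad female 6, and blue columns include Ecad females 3 and 6 and ΔEcad males 1 and 6.

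The members varied between tumours of the same group far more than a usual gene. The median within-group SD on the log2 CPM scale (counts scaled to library size and composition) was 1.55 for type I-like members (0.781 to 2.36) and 1.72 for gamma-like members (1.16 to 2.53), against 0.862 over all genes tested. Of the TPM summed over members and tumours, 4 of the 32 tumours carried 47.9%. Summed over the 41 members, Ecad male 4 had 7348 TPM, ΔEcad male 4 had 4476 TPM, Ecad male 6 had 3267 TPM and ΔEcad female 6 had 2955 TPM, where the median tumour had 603 TPM and the lowest, ΔEcad male 6, 209 TPM. Of the 41 members, 39 were among their 4 highest tumours in Ecad male 4, 39 in ΔEcad male 4, 28 in ΔEcad female 6 and 25 in Ecad male 6. At the low end, 26 members were among their 4 lowest tumours in Ecad female 6, 26 in ΔEcad male 1, 24 in Ecad female 3 and 24 in ΔEcad male 6. These high tumours thus lay in 3 of the 4 groups and these low tumours in 2.

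The high tumours differed in which members led. ΔEcad male 4 held the highest level of 24 of 33 type I-like members and of 1 gamma-like member, Gbp7. Ecad male 4 held the highest level of 7 type I-like and 7 of 8 gamma-like members. Gbp2 stood at 67.8 times Ifit1 in TPM in Ecad male 4 and at 50.8 times in Ecad male 6, but at 3.24 times in ΔEcad male 4 and 7.04 times in ΔEcad female 6. On the scale of mean log2 CPM, the gamma-like mean exceeded the type I-like mean by 3.04 in Ecad male 4, 2.70 in Ecad male 6 and 2.58 in ΔEcad female 6, and by 1.28 in ΔEcad male 4. The exceptions to the common pattern were Isg20, highest in Ecad female 4, and Ifi27l2a, highest in ΔEcad female 7.

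**Figure D2:**
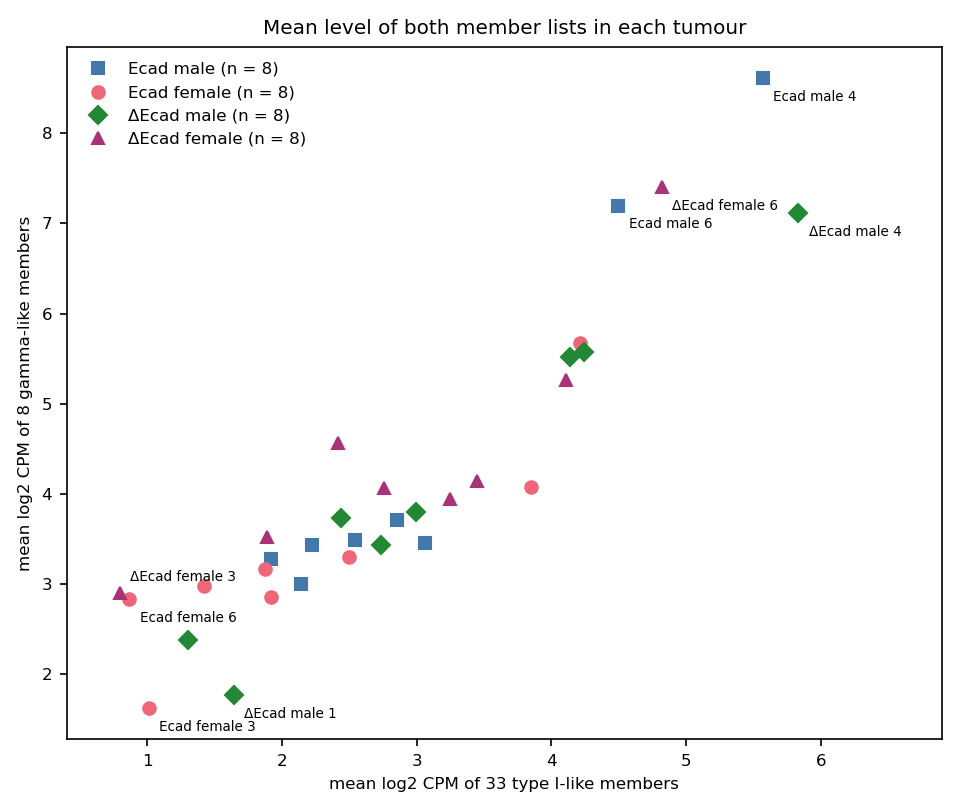
Mean log2 CPM of the 33 type I-like members (x axis) against that of the 8 gamma-like members (y axis), 1 point per tumour, 8 per group. 4 tumours lie apart at the upper right, with gamma-like means of 7.12 to 8.61, while the other tumours of all groups form 1 continuous band below 5.7.

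Group means of these scores lay close together beside the spread within groups. For Ecad tumours the type I-like mean log2 CPM was 3.10 ± 1.28 (males) and 2.20 ± 1.24 (females), and for ΔEcad tumours 3.17 ± 1.5 (males) and 2.93 ± 1.27 (females; SD over 8 tumours). The gamma-like mean was 4.52 ± 2.13, 3.32 ± 1.17, 4.17 ± 1.78 and 4.48 ± 1.37 in the same order. The median tumour stood at 3.47, 3.08, 3.77 and 4.11 on the gamma-like scale, so that Ecad males had the highest mean but not the highest median. Without the 3 libraries that stood apart, ΔEcad males had type I-like and gamma-like means of 3.27 ± 1.76 and 4.35 ± 2.07 (SD, n = 6), and ΔEcad females of 3.24 ± 1.00 and 4.70 ± 1.31 (SD, n = 7), and the highest gamma-like mean was then that of ΔEcad females.

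The members moved together across tumours within groups. After subtraction of group means, the median correlation between 2 type I-like members was 0.717 (528 pairs, −0.275 to 0.972), between 2 gamma-like members 0.839 (28 pairs), and between a type I-like and a gamma-like member 0.728 (264 pairs), against −0.001 over 156937186 pairs of all genes tested. The points of each correlation are 32 tumours and share depth and cell content, so these values are a description. All 8 gamma-like members correlated better with the other gamma-like members than with the type I-like mean, and 26 of 33 type I-like members better with the other type I-like members. The 7 others were Ifit2, Ifi44, Isg20, Zbp1, Parp9, Dtx3l and Cmpk2. Rtp4, Usp18 and Irf7 followed the mean of the remaining type I-like members most closely (r = 0.958, 0.954 and 0.932), and Isg20, Ifit2 and Ifi27l2a least (r = 0.166, 0.314 and 0.542).

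The interferon genes themselves had nearly no counts in these libraries. Whether sequence shared between ligand genes lowered their counts was not examined. None of 21 listed ligand genes passed the filter. 10 had no count in any tumour, which allows up to 3 counts in each library, and 10 others had 40 counts in all and at most 3 in a tumour. Ifng, encoding interferon gamma, was the exception with 184 counts in 20 tumours. Of these, 53 were in Ecad male 4 (3.20 TPM), 35 in Ecad male 6 (2.31 TPM) and 26 in Ecad female 7 (1.48 TPM), whereas ΔEcad female 6 stood at 0.68 TPM and ΔEcad male 4 at 0.50 TPM. The chemokine gene Cxcl9, a gamma target that attracts T cells, stood at 687 TPM and 274 TPM in Ecad males 4 and 6 and at 40.8 TPM and 20.2 TPM in ΔEcad male 4 and ΔEcad female 6. Cd8a, of cytotoxic T cells, stood at 5.49, 3.37, 4.74 and 1.55 TPM in the same 4 tumours where the median of the 32 tumours was 0.455 TPM. Over the whole list of 14 T and NK cell markers, Ecad males 4 and 6 and ΔEcad male 4 ranked 1, 3 and 4 of 32 (256, 202 and 168 TPM), whereas ΔEcad female 6 ranked 16 at 50.9 TPM, close to the median of 49.2 TPM. Summed T and NK cell markers had medians of 56.4 TPM (males) and 13.3 TPM (females) for Ecad tumours and of 85.1 and 49.2 TPM for ΔEcad tumours, with highest tumours at 256, 107, 215 and 129 TPM. Without the 3 libraries that stood apart, the medians of ΔEcad males and females were 85.1 and 50.9 TPM and the highest tumours 168 and 129 TPM.

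Neutrophil markers were also high in the same 4 tumours as a sum. The sum of 7 such markers was 5268 TPM in Ecad male 4, 3577 TPM in ΔEcad male 4, 2111 TPM in ΔEcad female 6 and 2093 TPM in Ecad male 6, ranks 2 to 5 of 32 beside a median of 147 TPM. The highest sum, 8642 TPM, was in Ecad female 4, which was not among the tumours high in the members. S100a8 and S100a9, which stressed keratinocytes also express, made up most of these sums. Csf3r, the receptor of a neutrophil growth factor, stood at 8.90 TPM in Ecad male 4, 9.06 TPM in Ecad male 6, 13.7 TPM in ΔEcad female 6 and 105 TPM in ΔEcad male 4, beside a median of 9.14 TPM. Ly6g stood at 0.33, 0.09, 0.28 and 3.80 TPM in the same order, beside a median of 0.27 TPM. ΔEcad male 4 was thus the only one of the 4 well above the median in both of these markers. Cxcr2 was above its median of 1.175 TPM in all 4, at 2.72, 3.62, 10.66 and 23.68 TPM in the same order. Mpo stood at 0.96, 0.40, 0.10 and 0.35 TPM, beside a median of 0.09 TPM. Elane stood at 0.95, 0.78, 0 and 0.44 TPM, beside a median of 0.085 TPM. Mpo and Elane had at most 42 and 34 counts in a tumour. Summed macrophage markers ranked 5 in Ecad male 4, 4 in ΔEcad male 4, 10 in Ecad male 6 and 13 in ΔEcad female 6. The part of immune cells in the member levels was not tested.

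In each of 5 comparisons a call required an adjusted p (Benjamini-Hochberg, over all 17717 genes) under 0.05 and a log2 fold change beyond 1 in either direction by edgeR's quasi-likelihood test. No member was called in any of them. The comparisons share groups of tumours, so they are not independent.

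Loss of Cdh1 in females came first. Isg15 ran over 0.31, 8.69 and 46.5 TPM (lowest, median and highest tumour) in Ecad females and over 10.7, 23.9 and 92.8 TPM in ΔEcad females. Gbp2 ran over 2.51, 17.3 and 67.0 TPM against 11.8, 29.5 and 214 TPM, and Iigp1 over 0.20, 2.04 and 46 TPM against 3.86, 15.7 and 182 TPM. The medians of these genes were higher in ΔEcad females and the ranges overlapped in each case. 0 of 41 members were called by edgeR, against 1.2% of all genes tested (1.16% higher and 0.0452% lower), and 0 by DESeq2 (7.23% of all genes) or by limma voom (0.00564%). At an unadjusted p under 0.05, 1 member was higher (11.2% of all genes were) and 0 lower (4.13%). That member was Ifi27l2a, with 0.49, 18.7 and 85.1 TPM in Ecad females and 0.30, 57.7 and 354 TPM in ΔEcad females (log2 fold change 2.06 ± 0.93 SE, adjusted p = 0.265 by edgeR). Fold changes were above 0 for 36 of 41 members, beside 48.4% of all genes, with a median of 0.57 for type I-like and 1.32 for gamma-like members beside −0.02 for all genes.

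By name, the log2 fold changes in females were 1.19 ± 0.77 (SE) for Isg15, 1.75 ± 0.98 for Oas2, 0.81 ± 0.97 for Ifit1, 0.46 ± 0.91 for Mx1, 0.17 ± 0.77 for Rsad2 and 0.64 ± 0.85 for Irf7. They were 0.67 ± 0.54 for Stat2, 0.43 ± 0.46 for Ddx58 and −0.07 ± 0.68 for Bst2. Among gamma-like members they were 0.78 ± 0.60 for Irf1, 1.25 ± 0.97 for Gbp2 and 1.98 ± 1.22 for Iigp1. None of the 12 had an adjusted p below 0.421, the value of Oas2. At an unadjusted p under 0.05 by edgeR, 8 of 10 keratinocyte markers and 5 of 5 adipocyte markers were higher in ΔEcad females (11.2% of all genes were). In both lists 0 were lower (4.13% of all genes were). The part of these markers was not tested. Without ΔEcad female 6 the gamma-like median was 0.35 and the type I-like median 0.10. Without the 3 libraries that stood apart, the medians were 0.74 and 1.46 for type I-like and gamma-like members, and Ifi27l2a stood at 2.25 ± 0.88 SE (adjusted p = 0.160 by edgeR).

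In males, medians and highest levels did not always point the same way. Isg15 ran over 9.79, 16.3 and 180 TPM in Ecad males and over 4.22, 21.8 and 140 TPM in ΔEcad males, and Ifit1 over 1.05, 2.10 and 32 TPM against 0.40, 4.59 and 119 TPM. Gbp2 ran over 12.3, 27.6 and 2170 TPM against 5.49, 34.6 and 385 TPM, with the higher median in ΔEcad and the higher extreme in Ecad males. 0 members were called by edgeR (0% of all genes), DESeq2 (0.119%) or limma voom (0%). At an unadjusted p under 0.05, 0 members were higher (7.19% of all genes were) and 1 was lower (3.05%), Gbp2, with a log2 fold change of −2.54 ± 1.01 SE (adjusted p = 0.437 by edgeR). Fold changes were above 0 for 24 of 41 members, beside 59.1% of all genes, and the medians were 0.18 for type I-like and −1.06 for gamma-like members beside 0.11 for all genes.

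The other fold changes in males were smaller than that of Gbp2. They were −0.09 ± 0.76 for Isg15, 1.05 ± 0.97 for Ifit1, 0.15 ± 0.91 for Mx1, 0.15 ± 0.96 for Oas2, 0.71 ± 0.77 for Rsad2 and 0.15 ± 0.85 for Irf7. They were −0.40 ± 0.54 for Stat2, 0.63 ± 0.46 for Ddx58, −0.10 ± 0.68 for Bst2, −0.40 ± 0.60 for Irf1 and −1.07 ± 1.19 for Iigp1. The direction of the gamma-like median rested on Ecad male 4. Without that tumour the gamma-like median was 0.43, and the fold change of Gbp2 was −0.77. Without Ecad males 4 and 6, which were left out because they were the highest, the fold change of Gbp2 was 1.75, the median 1.61, and all 41 members had a fold change above 0, with 16 higher at an unadjusted p under 0.05 (5.72% of all genes were), 0 lower (2.63%) and a smallest adjusted p of 0.587 by edgeR. Leaving out the top of 1 group favours the other, so these values show the dependence and are no test. Without the 3 libraries that stood apart, the medians were 0.38 for type I-like and −0.73 for gamma-like members, and Gbp2 stood at −2.25 ± 1.14 SE (unadjusted p = 0.059 by edgeR).

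Between the sexes in Ecad tumours, 6 of 8 males lay close to the females in the gamma-like members and 2 far above. Gbp2 stood at 2170 TPM in Ecad male 4, 822 TPM in Ecad male 6 and between 12.3 and 32.6 TPM in the other 6, against 2.51 to 67.0 TPM in Ecad females with a median of 17.3. Iigp1 stood at 444 and 186 TPM in those 2 males and between 1.56 and 6.42 TPM in the other 6, against 0.20 to 46 TPM in females. Igtp stood at 625 and 250 TPM against 4.09 to 91.6 TPM in females, and Gbp5 at 67.7 and 31.6 TPM against 0.07 to 5.41 TPM. The ranges of males and females overlapped for each of these genes. 0 members were called by edgeR, against 0.0508% of all genes (0.0113% higher and 0.0395% lower). At an unadjusted p under 0.05, 8 members were lower in females (10.3% of all genes were) and 0 higher (5.71%): Gbp2, Gbp3, Gbp5, Igtp, Iigp1, Isg15, Ifi27l2a and Ifi35.

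The fold change of Gbp2, female minus male, was −4.22 ± 1.09 SE (adjusted p = 0.0869 by edgeR). It was −2.42 ± 0.84 for Gbp3, −3.13 ± 1.16 for Gbp5, −2.63 ± 1.05 for Igtp and −3.20 ± 1.28 for Iigp1, with adjusted p from 0.149 to 0.206. Of the type I-like members it was −1.61 ± 0.78 for Isg15, −2.02 ± 0.93 for Ifi27l2a and −0.80 ± 0.38 for Ifi35. DESeq2 at its default settings called 5 members, Gbp2 (−2.85, adjusted p = 0.00227), Gbp3, Igtp, Iigp1 and Zbp1, beside 5.77% of all genes. By limma voom 0 were called (0.649% of all genes). Zbp1 stood at −3.44 by DESeq2, while no type I-like member lay below −2.12 by edgeR. Why the fold changes differed between the methods was not tested. Fold changes were above 0 for 2 of 41 members, beside 53.9% of all genes, and the medians were −0.88 for type I-like and −2.53 for gamma-like members beside 0.05 for all genes.

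The remaining named members had fold changes of −0.99 ± 0.97 for Ifit1, −1.12 ± 0.92 for Mx1, −1.45 ± 0.98 for Oas2, −0.16 ± 0.77 for Rsad2, −1.02 ± 0.86 for Irf7 and −0.94 ± 0.54 for Stat2. They were −0.18 ± 0.46 for Ddx58, −0.89 ± 0.68 for Bst2 and −1.07 ± 0.60 for Irf1. Immune, skin and adipocyte markers moved with this comparison. At an unadjusted p under 0.05 by edgeR, 10.3% of all genes were lower in females and 5.71% higher. Of 14 T and NK cell markers 4 were lower, including the cytotoxic genes Gzmb and Prf1, and 1 was higher. Of keratinocyte markers 8 of 10 were lower and 0 higher, and of adipocyte markers 5 of 5 were lower. Of 7 B and plasma cell markers tested, 5 were higher and 1 lower. With T cell and macrophage scores as covariates the medians were 0.32 and 0.16 and Gbp2 −1.34. Without Ecad male 4 the gamma-like median was −1.1, and without Ecad males 4 and 6 it was 0.57, with Gbp2 at 0.08 and 0 members at an unadjusted p under 0.05 (6.09% of all genes were higher and 6.95% lower). The 3 libraries that stood apart do not enter this comparison.

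**Figure D3:**
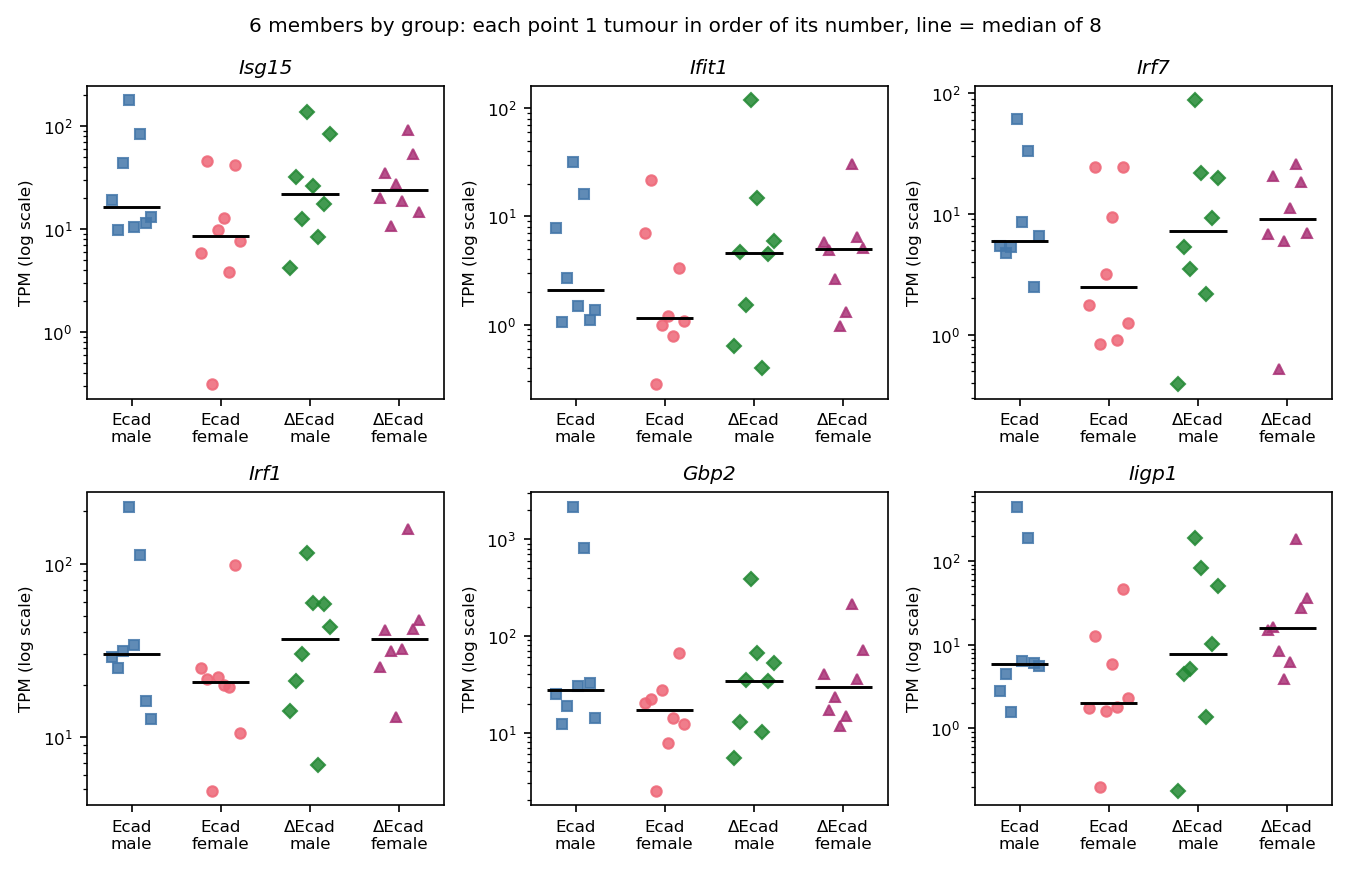
TPM on a log axis for 3 type I-like members (upper row) and 3 gamma-like members (lower row) in each of 32 tumours, with a line at the median of each group of 8. In Ecad males, Gbp2 and Iigp1 show 2 tumours far above the other 6, at 2170 and 822 TPM and at 444 and 186 TPM.

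In ΔEcad tumours the sexes were closer. Irf1 ran over 6.81, 36.7 and 116 TPM in males and 13.1, 36.7 and 159 TPM in females, and Irf7 over 0.39, 7.26 and 87.3 TPM against 0.52, 9.09 and 26.0 TPM. Bst2 ran over 51.4, 208 and 702 TPM in males and 45.4, 127 and 468 TPM in females. The ranges of the sexes overlapped almost entirely for these genes. 0 members were called by edgeR (0.0395% of all genes were), DESeq2 (0.135%) or limma voom (0.0339%), and 0 had an unadjusted p under 0.05 in either direction (3.32% of all genes higher and 5.49% lower). The smallest adjusted p of a member was 0.631. Fold changes were above 0 for 8 of 41 members, beside 45.1% of all genes, and the medians were −0.53 for type I-like and 0.01 for gamma-like members beside −0.06 for all genes.

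Female minus male in ΔEcad tumours, the fold changes were −0.33 ± 0.76 for Isg15, −1.24 ± 0.98 for Ifit1, −0.81 ± 0.92 for Mx1, 0.16 ± 0.96 for Oas2, −0.71 ± 0.77 for Rsad2 and −0.53 ± 0.85 for Irf7. They were 0.12 ± 0.54 for Stat2, −0.38 ± 0.46 for Ddx58, −0.86 ± 0.68 for Bst2, 0.11 ± 0.60 for Irf1, −0.43 ± 0.96 for Gbp2 and −0.15 ± 1.18 for Iigp1. None of the 12 had an adjusted p below 0.729, the value of Ifit1 and Bst2. Without the 3 libraries that stood apart, the medians were −0.62 and −0.13.

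**Figure D4:**
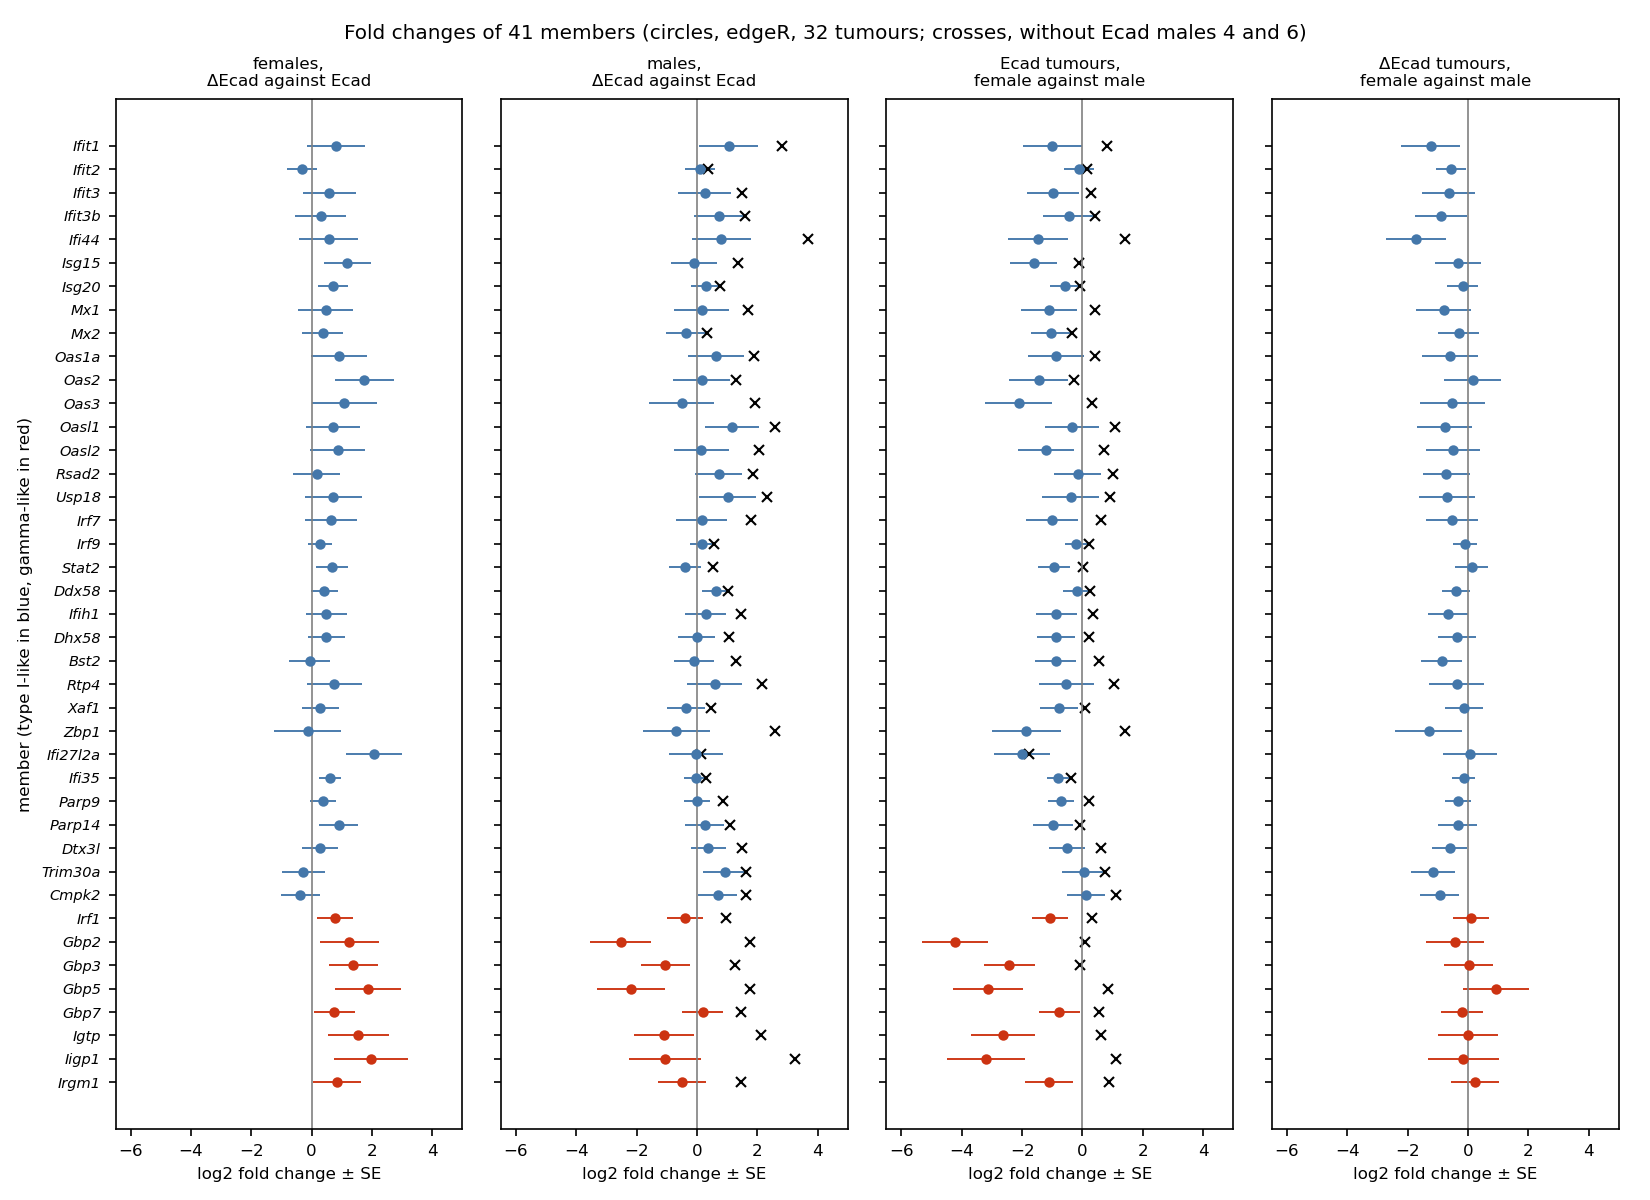
Log2 fold change of each of 41 members in 4 comparisons (circles, edgeR over 32 tumours, bars ± 1 SE; type I-like blue, gamma-like red), with crosses for the fit without Ecad males 4 and 6 in the comparisons that use them. In Ecad tumours the gamma-like circles lie at −0.77 to −4.22 and their crosses near or above 0.

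Whether the effect of genotype differed between the sexes was tested as an interaction. 0 members were called by edgeR (0% of all genes), DESeq2 (6.91%) or limma voom (0%). At an unadjusted p under 0.05, 3 members had an interaction above 0, a ΔEcad minus Ecad fold change higher in females than in males (10.7% of all genes did), and 0 had one below 0 (6.94%). They were Gbp2 (interaction 3.79 ± 1.4 SE on the log2 scale, adjusted p = 0.139 by edgeR), Gbp5 (4.06 ± 1.57) and Gbp3 (2.44 ± 1.15). The medians were 0.31 for type I-like and 2.54 for gamma-like members beside −0.16 for all genes, and 30 of 41 members lay above 0, beside 41.4% of all genes. Of the other named members the interaction was 1.28 ± 1.08 for Isg15, −0.24 ± 1.37 for Ifit1, 0.31 ± 1.29 for Mx1, 1.60 ± 1.36 for Oas2, −0.55 ± 1.09 for Rsad2 and 0.49 ± 1.2 for Irf7. It was 1.07 ± 0.76 for Stat2, −0.21 ± 0.65 for Ddx58, 0.03 ± 0.96 for Bst2, 1.18 ± 0.84 for Irf1 and 3.05 ± 1.70 for Iigp1. The Ecad males enter this contrast, and without males 4 and 6 the gamma-like median was −0.57 and Gbp2 −0.53. Each of the 3 had a fold change above 0 in females and below 0 in males. Without the 3 libraries that stood apart, the medians were 0.23 and 2.40 and Gbp2 3.62 ± 1.53 SE (adjusted p = 0.180 by edgeR).

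The rest of the pathway was read from lists that hold no member. None of its genes was called in any comparison by edgeR. For 10 receptor and kinase genes, counts at an unadjusted p under 0.05 follow with the share of all genes in parentheses. With ΔEcad, 0 were higher (11.2%) and 1 lower (4.13%) in females, and 2 higher (7.19%) and 0 lower (3.05%) in males. Against males, 1 was higher (5.71%) and 0 lower (10.3%) in Ecad females, and 0 higher (3.32%) and 2 lower (5.49%) in ΔEcad females. Of the interactions, 0 were above 0 (10.7%) and 3 below 0 (6.94%). Ifnar1, a chain of the type I receptor, had an unadjusted p under 0.05 in each comparison, lower in ΔEcad females than Ecad females (log2 fold change −0.43 ± 0.17 SE), higher in ΔEcad males than Ecad males (0.54 ± 0.17), and with an interaction of −0.96 ± 0.24 (adjusted p = 0.0526 by edgeR). Ifnar2 and Ifngr2 were the other receptor genes with an unadjusted p under 0.05 in the interaction, at −1.04 ± 0.40 and −0.65 ± 0.30. These 3 interactions were below 0, and of all 10 receptor and kinase genes 4 lay above 0 and 6 below. The interactions of all 8 gamma-like members were above 0, but their median was below 0 without Ecad males 4 and 6. A relation between receptor genes and gamma-like members was not tested. Of 16 sensors, adaptors and factors, 2 were higher (11.2% of all genes were) and 1 lower (4.13%) in ΔEcad females at an unadjusted p under 0.05, and in males 1 was higher (7.19%) and 0 lower (3.05%). Between the sexes 1 was higher (5.71%) and 2 lower (10.3%) in Ecad females than males and 0 of 16 either way in ΔEcad tumours, and 1 interaction was above 0 (10.7%) and 3 below 0 (6.94%). With 16 genes, the shares in females were near those of all genes. Of 9 inhibitors of interferon signalling tested, 1 was lower in Ecad females than males (10.3% of all genes were) and 0 passed this threshold in the other comparisons. It was Samhd1 (−1.31 ± 0.45), which degrades nucleotides. Of 19 other gamma targets tested, 7 were lower in Ecad females than males at an unadjusted p under 0.05 (10.3% of all genes were) and 0 higher (5.71%). In females 0 of the 19 were higher (11.2%) or lower (4.13%). In males 0 were higher (7.19%) and 1, Cxcl9, was lower (3.05%). In ΔEcad females 0 were higher (3.32%) and 1 lower (5.49%) than in ΔEcad males. Of the interactions, 2 were above 0 (10.7%) and 1 below 0 (6.94%). Between the sexes in Ecad tumours, Cxcl9 had the largest difference (−6.05 ± 1.64, adjusted p = 0.0974 by edgeR). The others of the 7 were Tap1, of antigen processing, Gbp4, Gbp6, Gbp8, Gbp9 and Tgtp1. Cxcl9 stood at 687 and 274 TPM in Ecad males 4 and 6. It stood between 0.41 and 3.97 TPM in the other Ecad males, against 0.02 to 9.29 TPM in Ecad females. The fold changes of this list were not computed without Ecad males 4 and 6, so its dependence on them was not tested.

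Relations between genes across tumours were computed for 13 pairs, with Isg15 for the type I-like and Gbp2 for the gamma-like members, on log2 CPM with group means subtracted and 100000 permutations within groups (two-sided tests). Isg15 followed Irf7 (r = 0.828, rho = 0.841, permutation p = 1e-05, the smallest that they can give, adjusted over the 13 pairs to 2.6e-05) and Gbp2 followed Irf1 (r = 0.867, rho = 0.795, the same p). For Isg15 and Gbp2, r was 0.725 and rho 0.615 (the same p for r, and 0.00036 for rho by permutation). With the 2 most distant tumours on the first gene's axis left out, the r values were 0.845, 0.810 and 0.639. Within single groups of 8 tumours they ranged from 0.817 to 0.872, from 0.813 to 0.948 and from 0.483 to 0.883.

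With the interferon gamma gene r was higher for Gbp2 (r = 0.804, rho = 0.683, permutation p = 1e-05; 0.618 without 2 tumours) than for Isg15 (r = 0.631, rho = 0.577, permutation p = 0.00032, adjusted 0.000594; 0.599 without 2), and the difference between both was not tested. Ifng had a count in only 20 of the 32 tumours, so its values are coarse. With Cd8a, r was 0.678 for Gbp2 (rho = 0.694, permutation p = 1e-05, within groups 0.379 to 0.941) and 0.681 for Isg15 (rho = 0.644, permutation p = 3e-05, within groups 0.500 to 0.789). With Ptprc, the gene of the leukocyte antigen CD45, r was 0.457 for Gbp2 (rho = 0.611, permutation p = 0.00185, adjusted 0.00301) and 0.454 for Isg15 (rho = 0.464, permutation p = 0.00669, adjusted 0.00966), and 0.350 without 2 tumours (adjusted permutation p = 0.0887). With Dct, a melanocytic enzyme gene, r was 0.0877 for Gbp2 (rho = 0.0667) and 0.0864 for Isg15 (rho = 0.134, both adjusted permutation p = 0.761), and without ΔEcad male 7 it was 0.125 and −0.00436. With Krt14, of basal keratinocytes, r was 0.0147 for Gbp2 (rho = −0.110, adjusted permutation p = 0.937) and −0.0745 for Isg15 (rho = −0.0935, adjusted permutation p = 0.761). Within single groups r had both signs. With Dct it ran from −0.37 to 0.48 for Gbp2 and from −0.459 to 0.387 for Isg15. With Krt14 it ran from −0.744 to 0.559 for Gbp2 and from −0.468 to 0.382 for Isg15. Tumours high in Isg15 and Gbp2 thus also tended to be high in Ptprc, Cd8a and Ifng. No relation with the melanocytic or keratinocyte gene shared by the groups was detected at this number of tumours.

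**Figure D5:**
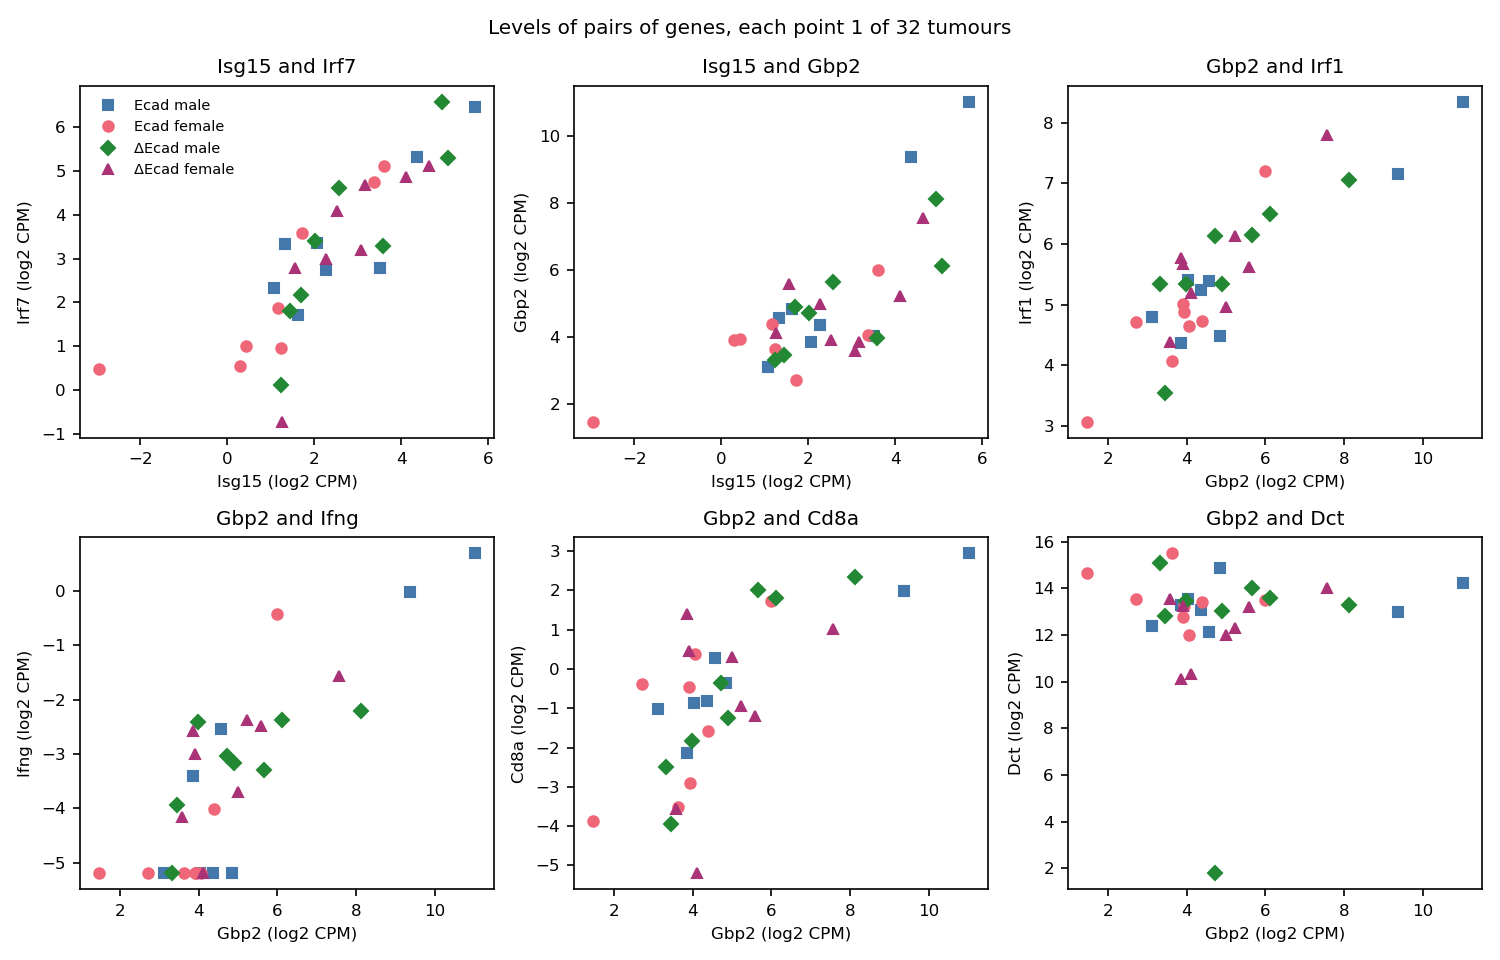
Log2 CPM of 6 pairs of genes, 1 point per tumour, coloured by group as in the key. Points rise together for Isg15 with Irf7 and for Gbp2 with Irf1 in all 4 groups, tumours without an Ifng count line up at the bottom of that panel, and the low point in the Dct panel is ΔEcad male 7.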

How the data were processed

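The authors extracted RNA from primary tumours, made stranded poly(A) libraries, sequenced paired ends, aligned with STAR to mm10 (GENCODE M13) and deposited raw read counts per gene with a table of TPM. Whether a batch correction was applied to these tumours, and the strand setting of the counting, is not given in the sources used here. Library totals of 24036333 to 63923086 counts set the precision of low genes, and floors of 3 counts cover counting error only. The deposited identifiers were named by GENCODE M21, 50376 of 50600. The members and gene lists were chosen with earlier results of these data known, so the selection is not blind.

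The counts were tested with edgeR 4.0.16 (R 4.3.3; TMM, filterByExpr, robust quasi-likelihood, 32 tumours in 1 model with 4 groups); DESeq2 1.42.0, limma 3.58.1 (voom and log2 TPM), other filters, covariates, a replicate block and left-out tumours were alternatives. In simulated data for the females comparison (17564 genes), 38% of genes changed by a log2 of 2 and 100% of genes changed by 4 were called. Every gene was simulated with 1 common spread of counts (dispersion 0.624). The members had larger within-group SDs, with medians of 1.55 (type I-like) and 1.72 (gamma-like) against 0.862 for all genes. The simulated shares therefore do not give the recovery of members. Levels are TPM, and scores and relations use log2 CPM with a prior count of 1. Fold changes are named in each comparison for 12 members of the main roles, for called members and for up to 5 members of smallest unadjusted p under 0.05; other lists are given by counts. Ifi27l2a and Ifi35 between the sexes in Ecad tumours, and the genes named from other lists, were chosen after their values were seen. RefSeq promoter windows of GRCm38.p6 share the build of the files. The effect of Irf9, Rtp4, Igtp and Irf7 overlapping other genes was not tested. The values of 1 gene of the pathway are not reported here.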

Additional observations from a re-analysis of the deposited data

Results flagged for a closer look

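The 12 members named in each comparison and both scores were examined in each group of 8 for a tumour far from the rest. Of these 56 tests, 3 passed Dixon's critical value at the 95% level, where chance flags about 1 in 20. The tests share tumours and members, so they are not independent. In ΔEcad female 3, a library nearly without macrophage, endothelial and red blood cell markers, Oas2 stood at a log2 CPM of −4.38 against 0.52 to 4.47 in the other ΔEcad females (gap over range 0.554), and Irf7 at −0.72 against 2.79 to 5.12 (0.601). The Oas2 value rests on 1 count, under the floor of 3 counts, so the size of its gap is set by the prior count. Irf7 had 28 counts there. In Ecad female 7, the Ecad female with the most Ifng counts, Irf1 stood at 7.21 against 3.07 to 5.02 in the other Ecad females (0.530).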

How the results depend on the processing

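The count of called members was 0 by edgeR in all 5 comparisons under each filter and scaling, with the covariates, with a replicate block and without any single tumour, and DESeq2 called 5 members between the sexes in Ecad tumours. Leaving out Ecad males 4 and 6, chosen after seeing the data, gave gamma-like medians of 1.61 in males, 0.572 between the sexes in Ecad tumours and −0.574 for the interaction. It turned Gbp2 to 1.75 in males, to 0.0808 between the sexes in Ecad tumours and to −0.53 for the interaction, and in Ecad tumours Iigp1 to 1.12, Gbp5 to 0.85 and Igtp to 0.60. With T cell and macrophage scores as covariates, the Ecad sex comparison gave a gamma-like median of 0.162, Iigp1 at 0.14, Gbp5 at 0.30 and Igtp at 0.18. The cause was not tested. Of 66 fold changes given by name, the sign changed in 0 under DESeq2 and in 16 under limma voom, and in 14 and 11 on log2 TPM with a pseudocount of 0.1 and 1, in 25 without Ecad males 4 and 6, in 26 with T cell and macrophage scores and in 10 with the block.

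Without any single tumour, type I-like medians ran from 0.103 to 0.844 in females, −0.464 to 0.887 in males, −1.18 to −0.145 between the sexes in Ecad and −0.875 to 0.0863 in ΔEcad tumours, and −0.488 to 0.872 for the interaction. Gamma-like medians ran from 0.349 to 1.80, −1.74 to 0.428, −3.32 to −1.1, −0.850 to 0.7 and 1.10 to 3.37. The labels do not say whether equal replicate numbers pair tumours. Correlations of same-numbered tumours ran from −0.547 to 0.423 and do not settle whether such tumours share a litter or batch. With a replicate block the medians were 0.605 and 0.927 in females, 0.241 and −0.0074 in males, −0.544 and −1.15 between the sexes in Ecad and −0.233 and 0.0701 in ΔEcad tumours, and 0.146 and 1.12 for the interaction. Without group means subtracted, r was −0.00927 for Isg15 and Dct and 0.137 for Isg15 and Krt14. With group means subtracted it was −0.00436 for Isg15 and Dct without ΔEcad male 7, and without 2 tumours it was 0.350 for Isg15 and Ptprc, 0.00462 for Isg15 and Krt14 and −0.153 for Gbp2 and Krt14. On log2 TPM with a pseudocount of 0.1 the median of all genes moved from 0.113 to −0.243 in males, from 0.048 to −0.105 between the sexes in Ecad and from −0.0575 to 0.211 in ΔEcad tumours and from −0.164 to 0.283 for the interaction, and named fold changes there are read beside these shifts. Depth limits the lowest members in single tumours: Oas2, Oas3 and Ifi27l2a were at or under 3 counts in 2 tumours each and Mx1, Oas1a and Gbp5 in 1 each.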
